A study of Mus musculus with 12 samples.

Results

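The immunoproteasome and the MHC class I presentation pathway were followed through 10 genes, Psmb8, Psmb9, Psmb10, Psme1, Psme2, Tap1, Tap2, Tapbp, B2m and H2-K1, taken by name as parts of this machinery, with earlier results of these data known. They were looked up among the 43280 entries of the table of the IDH2 mutant experiment, where all 10 were listed, and among the 23930 entries of the table of the 2-HG experiment, where 9 were listed and Psme2 had no entry. RNA was measured in 12 libraries, 3 in each of 4 groups, of mouse embryonic fibroblast (MEF) cells which came from day 13.5 embryos of C57BL/6 mice and had become immortal through passaging alone. 2MUT cells stably expressed the human IDH2 mutant R172S with a FLAG tag from the retroviral vector pMXs-puro, and Control cells carried the vector without IDH2. Both were selected with puromycin and received no treatment, and whether either line came from 1 clone is not given in the sources used here. In the other experiment MEF cells were kept for 24 h with 300 μM of 2-HG (2-hydroxyglutarate, the metabolite that the mutant enzyme makes, named in the methods as the membrane-permeant octyl-(R)-2HG), giving 2-HG(+), or without it, giving 2-HG(-). The labels and the methods name different suppliers of 2-HG, and which compound these libraries received is not settled here. According to the sample labels the 2-HG(-) cells received the solvent DMSO, whereas the study's text calls them non-treated. The study asked which changes in expression the mutant and the metabolite have in common.

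Cells cut their own cytosolic proteins into peptides in the proteasome and show some of these on the surface, bound to MHC class I, to CD8+ T cells. The proteasome core carries its cutting sites on the constitutive subunits Psmb5, Psmb6 and Psmb7, and in immune cells or after interferon these are replaced by the immunosubunits Psmb8, Psmb9 and Psmb10, which gives the immunoproteasome. The ring PA28, made of Psme1 and Psme2, opens the core, the transporter TAP (Tap1 with Tap2) moves peptides into the endoplasmic reticulum, tapasin (Tapbp) holds the class I molecule at TAP, and the class I molecule is a heavy chain such as H2-K1 with the light chain B2m. Fibroblasts hold the immunosubunits at a low resting level and raise this machinery strongly when exposed to interferon.

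Libraries of the IDH2 mutant experiment held 6472439 to 7313602 reads on genes and those of the 2-HG experiment 14959318 to 18363768, so that 3 reads were worth 0.410 to 0.464 RPM and 0.163 to 0.201 RPM, respectively. RPM is reads on a gene per 1000000 reads on all genes. By its design the kit amplifies 1 stretch per gene, so changes were taken between libraries of a table. Levels of different genes, in the check of cell type markers too, are set side by side only as the values listed. The experiments share 20443 names, with 22835 listed only in the IDH2 mutant experiment and 3485 only in the 2-HG experiment. Whether a shared name stands for the same stretch in both is not given in the sources used here. Fold changes were taken as log2 differences of RPM + 1, which understates the change of genes at a few RPM, and were tested with limma, with p-values adjusted (Benjamini-Hochberg) over all genes whose mean reached 1 RPM and a threshold of 0.05. The 3 libraries of a group are described as triplicates without saying whether they came from separate cultures, so p-values measure only the spread between these libraries. In the 2-HG experiment 2-HG(-) library 2 and 2-HG(+) library 1 stood apart from their groups, with deviations that correlated with each other across genes (r = 0.48), and without both of them, an alternative chosen after seeing the data, all 8 tested members were still called lower with 2-HG, where 16.2% of all genes tested were. The entry of mouse Idh2 was at 70.9 to 80.8 RPM in Control and 42.6 to 55.2 RPM in 2MUT (log2 fold change -0.63, limma adjusted p = 0.00298). It thus shows no rise from the human transgene, and whether its amplified stretch could read the transgene is not given in the sources used here. With 2-HG Idh2 was called higher (160 to 186 against 217 to 254 RPM, 0.43, limma adjusted p = 0.0109).

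Most of the class I genes were lower in both experiments, led by Psmb8. In 2MUT cells 7 of the 10 members were called lower than in Control (Psmb8, Psmb9, Psmb10, Psme1, Tap1, Tap2 and H2-K1), B2m was called higher, and Psme2 and Tapbp were not called, where 17.3% of all genes tested were lower and 16.5% higher (33.8% in either direction). With 2-HG all 8 members that could be tested were called lower, where 16.7% of all genes tested were lower and 16.1% higher (32.8% in either direction). The median log2 fold change was -0.81 over the 10 members in 2MUT against 0.01 over all 11065 genes tested, and -0.99 over the 8 tested members with 2-HG against -0.02 over 10384 genes. Each tested member had a mean above 1 RPM in both groups of its comparison. Psmb8, Psmb10, Psme1, Tap1, Tap2 and H2-K1, which are 6 of the 8 members tested in both experiments, were called lower in both, where 3.06% of the 9594 genes tested in both were. Some of these genes are also on the study's own list from these libraries, so their calls are no independent evidence.

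**Figure D1:**
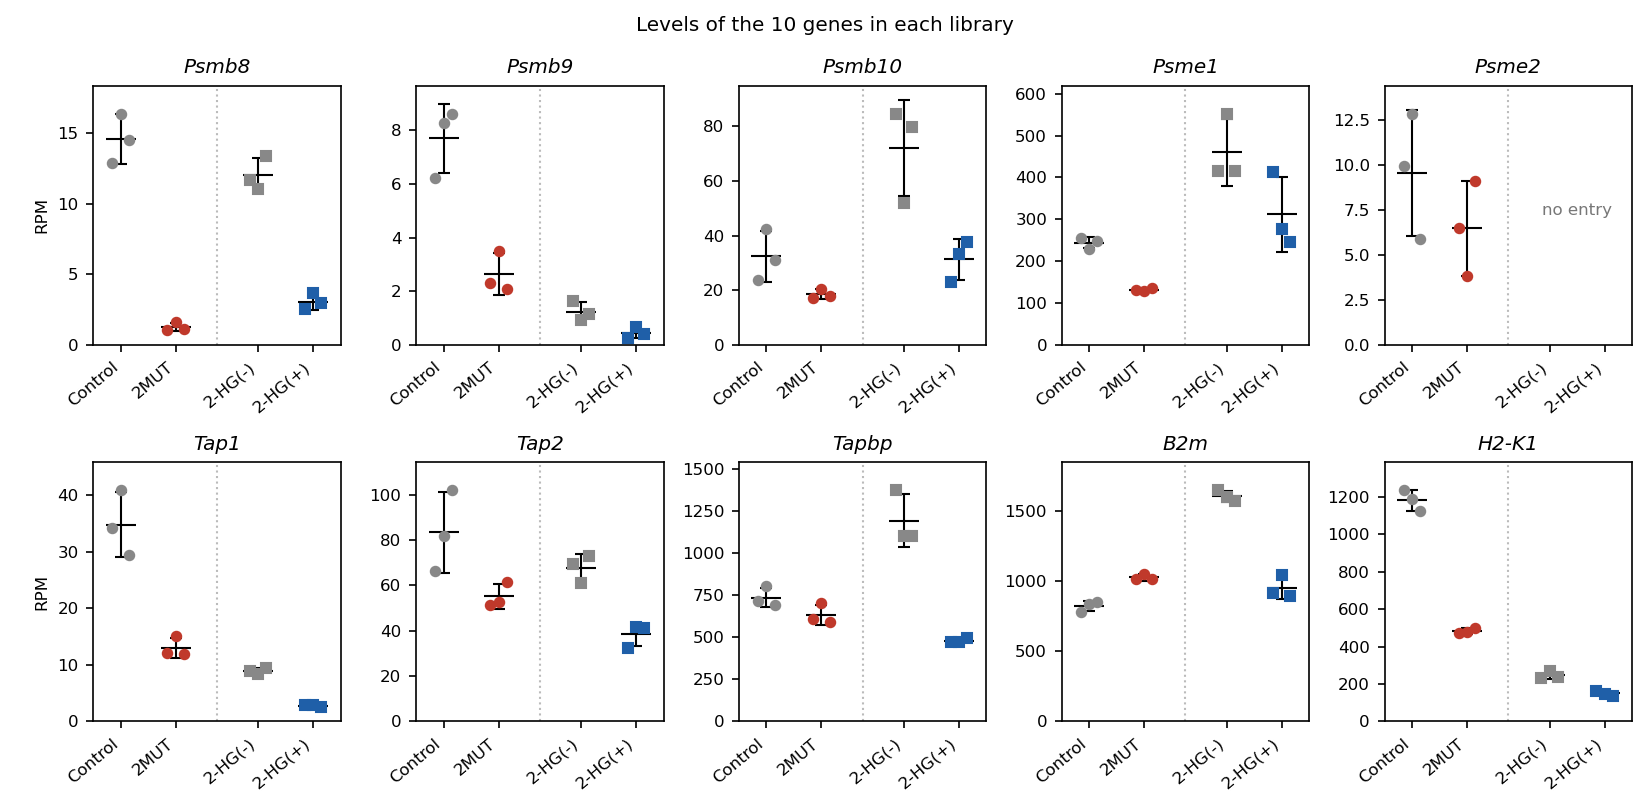
RPM of each gene (linear axes from 0) in each library of Control and 2MUT (circles) and of 2-HG(-) and 2-HG(+) (squares), with the mean and SD of 3 libraries as bars and a dotted line between the tables, across which levels are not compared. In 2MUT 7 genes lie wholly below Control, B2m wholly above it, and Psme2 and Tapbp overlap, whereas with 2-HG all 9 listed genes lie wholly below 2-HG(-).

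Counted by library instead of by test, all 3 2MUT libraries lay below all 3 Control libraries for 7 members and above them for 1, where 24.0% and 23.5% of all genes tested did so. All 3 2-HG(+) libraries lay below the 2-HG(-) libraries for 9 of 9 listed members, where 24.1% of all genes tested did so and 22.2% lay wholly above. RNA came from whole cultures, so fewer cells expressing a gene and less RNA per cell cannot be told apart.

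The fibroblast label was checked first. The listed fibroblast markers (9 in the IDH2 mutant experiment and 8 in the 2-HG experiment), collagens and the intermediate filament vimentin (Vim) among them, summed to at least 13354 RPM in every library of the IDH2 mutant experiment and at least 15067 RPM in the 2-HG experiment. They moved with the groups too, since 6 of the 8 tested markers were lower and 1 was higher in 2MUT, where 17.3% of all genes tested were lower and 16.5% higher. With 2-HG 4 of 8 were lower and 1 was higher, where 16.7% and 16.1% of all genes tested were. The markers' median log2 fold changes were -0.55 in 2MUT and -0.58 with 2-HG. Not every listed marker was abundant, since S100a4 was at most 0.29 RPM in the IDH2 mutant experiment and had no entry in the other. Thy1 was lower in 2MUT (77.4 to 82.1 against 18.9 to 28.0 RPM, log2 fold change -1.71). With 2-HG Thy1 was at a few RPM and was the marker called higher (2.61 to 3.00 against 4.31 to 6.88 RPM, 0.71). The leukocyte markers (7 listed in the IDH2 mutant experiment and 8 in the 2-HG experiment), included because leukocytes carry the immunoproteasome constitutively, summed to 8.26 to 12.6 RPM in Control and 9.91 to 11.1 RPM in 2MUT, and to 12.2 to 14.7 RPM in 2-HG(-) and 8.93 to 11.1 RPM in 2-HG(+). Ptprc, the pan-leukocyte marker CD45, was at 0 in 11 of the 12 libraries and at 0.14 RPM in the other, and the T cell marker Cd3e was at most 0.05 RPM. The lysosomal marker Cd68 was lower with 2-HG (11.0 to 13.4 against 7.67 to 9.61 RPM, limma adjusted p = 0.0214), while Lyz2 was higher in 2MUT (0.15 to 0.82 against 2.47 to 2.75 RPM, adjusted p = 0.00408). Lyz2 passed the filter of 1 RPM only through 2MUT, so its call is no support. Endothelial markers summed to at most 2.94 RPM and epithelial markers to at most 0.73 RPM in any library. The part of any marker in the results was not tested.

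Psmb8 (also called LMP7), the immunosubunit with chymotrypsin-like activity, changed most of the 10 genes. Its 3 Control libraries held 12.9, 16.4 and 14.5 RPM and its 2MUT libraries 1.08, 1.61 and 1.10 RPM, the last from 7, 11 and 8 reads. The highest 2MUT library was thus far below the lowest Control library. The means were 14.6 ± 1.76 and 1.26 ± 0.30 RPM (SD, n = 3), which is 11.5-fold lower, with a log2 fold change of -2.78 (SE 0.21, limma adjusted p = 4.06e-06). In the 2-HG experiment Psmb8 was at 11.7, 11.0 and 13.4 RPM without 2-HG and at 2.51, 3.67 and 2.94 RPM with it. That was 3.96-fold lower in the means and -1.70 in log2 (SE 0.15, limma adjusted p = 5.19e-05), again with no overlap.

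Psmb9 (LMP2), the immunosubunit that replaces Psmb6, was at 6.22, 8.26 and 8.61 RPM in Control and 2.32, 3.51 and 2.06 RPM in 2MUT. Its groups did not overlap and the log2 fold change was -1.27 (SE 0.23, limma adjusted p = 0.00156). In the 2-HG experiment it was barely detected, at 1.63, 0.94 and 1.14 RPM in 2-HG(-) and 0.26, 0.66 and 0.39 RPM in 2-HG(+). These values rest on 30, 14 and 19 reads against 4, 11 and 6, and the mean of the 6 libraries was under 1 RPM, so it was not tested. Without that filter the log2 fold change of -0.63 was called lower (limma adjusted p = 0.0161). Every 2-HG(+) library was nevertheless below every 2-HG(-) library.

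Psmb10 (MECL-1), which replaces Psmb7, was at 23.8, 42.5 and 31.0 RPM in Control and 17.3, 20.5 and 17.9 RPM in 2MUT. The groups did not overlap, but Control spread widely, with an SD of 29.0% of its mean. The log2 fold change was -0.74 (SE 0.19, limma adjusted p = 0.0132). With 2-HG it went from 84.6, 51.9 and 79.7 RPM to 22.9, 33.1 and 37.8 RPM, a log2 fold change of -1.18 (SE 0.22, limma adjusted p = 0.00285). An unmoderated test, in which each gene has only its own spread, gave adjusted p-values of 0.113 in 2MUT and 0.0675 with 2-HG, neither under the threshold.

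**Figure D2:**
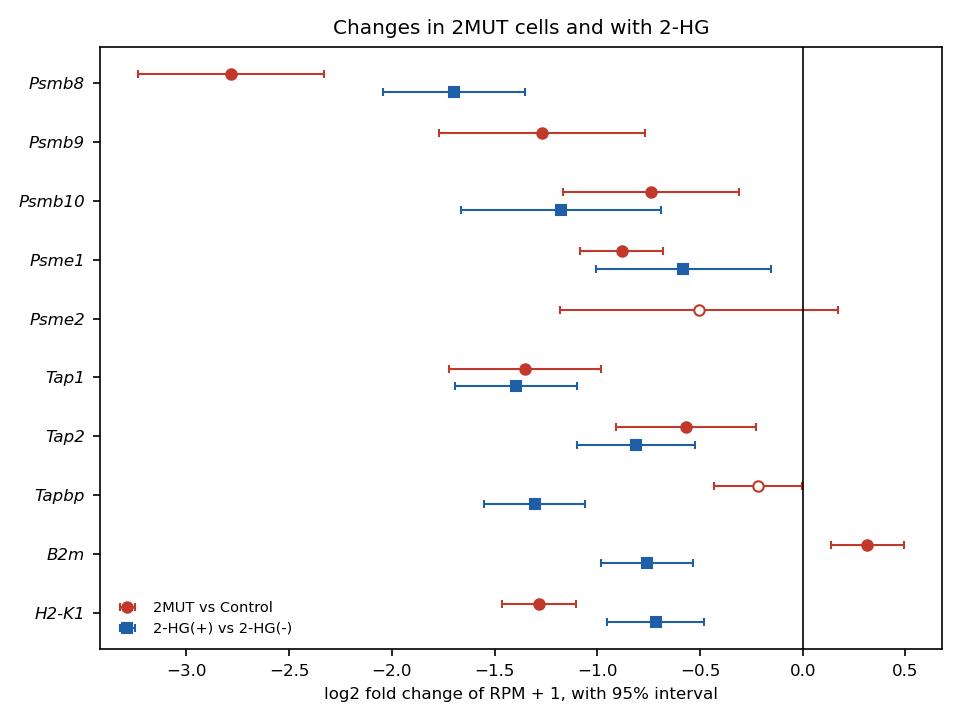
Log2 fold change of RPM + 1 with its 95% interval for each gene (rows) in 2MUT against Control (red circles) and in 2-HG(+) against 2-HG(-) (blue squares), filled where the limma adjusted p was under 0.05. Psmb8 shows the lowest value in both comparisons, and B2m is the gene with an interval above 0 in 2MUT (0.14 to 0.49) and below 0 with 2-HG (-0.98 to -0.53).

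Neither of the constitutive counterparts that could be tested was called lower. Psmb6 was at 169 to 209 RPM in Control and 155 to 192 RPM in 2MUT, overlapping groups with a log2 fold change of -0.16 (limma adjusted p = 0.324), and at 204 to 269 RPM in 2-HG(-) and 253 to 317 RPM in 2-HG(+) (0.27, adjusted p = 0.142). Psmb7 overlapped as well in 2MUT (206 to 268 against 212 to 236 RPM, -0.13, limma adjusted p = 0.407), and with 2-HG it was slightly higher (393 to 423 against 480 to 523 RPM, 0.30, adjusted p = 0.028), a call that quantile normalization removed. Psmb5, the counterpart of Psmb8, was listed at 0 in the IDH2 mutant experiment and had no entry in the other, so the third pair was not formed. Whether that 0 is a level or the lack of a working target is not given in the sources used here.

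The ratio of an immunosubunit to its counterpart was then taken within each library. For Psmb9 over Psmb6 the log2 ratio of RPM + 1 was -4.56, -4.50 and -4.37 in Control and -5.86, -5.24 and -5.67 in 2MUT, and the means differed by -1.11. With 2-HG it differed by -0.91, or by -1.62 when 0.1 instead of 1 RPM was added, since Psmb9 was so low there. For Psmb10 over Psmb7 the log2 ratio was -3.37, -2.63 and -2.69 in Control and -3.54, -3.47 and -3.52 in 2MUT (difference of the means -0.61). It was -2.31, -2.90 and -2.31 in 2-HG(-) and -4.33, -3.86 and -3.76 in 2-HG(+) (difference -1.48). Both ratios were therefore lower in every 2MUT and every 2-HG(+) library than in any library of the matching control group.

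**Figure D3:**
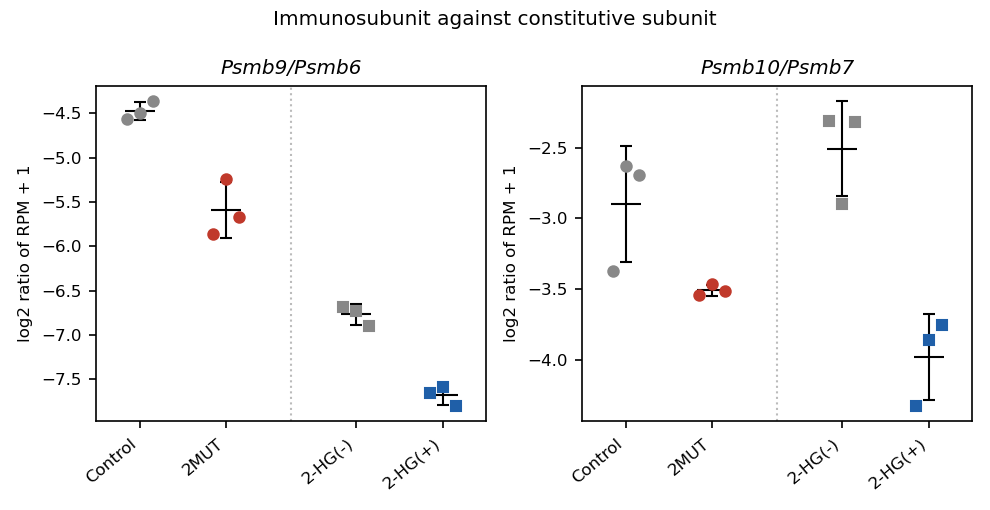
Log2 ratio of RPM + 1 of an immunosubunit to the constitutive subunit it replaces, Psmb9 to Psmb6 and Psmb10 to Psmb7, in each library, with the mean and SD of 3 libraries as bars and a dotted line between the tables. No 2MUT or 2-HG(+) library reaches the lowest library of its control group in either ratio.

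Psme1 (PA28α), a subunit of the ring that caps the core, held 255, 229 and 248 RPM in Control and 132, 128 and 136 RPM in 2MUT. The libraries of each group lay close together, and the log2 fold change was -0.88 (SE 0.09, limma adjusted p = 4.83e-05). In the 2-HG experiment the separation was slight. The lowest 2-HG(-) library had 414.456 RPM and the highest 2-HG(+) library, library 1, had 414.231 RPM, with the other libraries at 414.457 and 552 RPM and at 277 and 246 RPM. The log2 fold change was -0.58 (SE 0.19, limma adjusted p = 0.0414). The call held without 2-HG(+) library 1 (adjusted p = 0.00295) and was lost without any 1 of the other 5 libraries (adjusted p 0.0598 to 0.123, log2 fold change -0.65 to -0.43). Median-of-ratios scaling (adjusted p = 0.0785) and edgeR on whole reads (adjusted p = 0.0887) did not make it either.

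Psme2 (PA28β), the partner of Psme1 in the ring, was at 9.91, 12.8 and 5.88 RPM in Control and 6.49, 3.81 and 9.08 RPM in 2MUT. These groups overlapped, and the log2 fold change of -0.51 had an interval from -1.18 to 0.17 (limma adjusted p = 0.230). The value turned on single libraries. It was -0.78 without Control library 3 (adjusted p = 0.0403) and -0.75 without 2MUT library 3 (0.111), but -0.28 without Control library 2 (0.551) and -0.22 without 2MUT library 2 (0.625). A near-identical copy, Psme2b, is listed in both experiments, so reads may have been divided between them. Psme2b was at 0.14 to 1.18 RPM in the IDH2 mutant experiment and was not called in the 2-HG experiment, where Psme2 had no entry (95.7 to 137 against 93.7 to 116 RPM, log2 fold change -0.08, limma adjusted p = 0.691).

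Tap1, which with Tap2 forms the ATP-driven peptide pump, fell in both experiments. It was at 34.2, 40.9 and 29.4 RPM in Control and 12.1, 15.1 and 11.8 RPM in 2MUT, with a log2 fold change of -1.35 (SE 0.17, limma adjusted p = 0.000146). It was at 8.99, 8.36 and 9.37 RPM in 2-HG(-) and 2.91, 2.83 and 2.55 RPM in 2-HG(+), with a log2 fold change of -1.40 (SE 0.13, limma adjusted p = 6.74e-05). The groups were far apart in both experiments, and the SDs in the 2-HG experiment were 5.73% and 6.85% of the mean.

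Tap2 changed less than Tap1. Its libraries held 66.3, 81.8 and 102 RPM in Control and 51.3, 52.9 and 61.5 RPM in 2MUT, without overlap but with the highest 2MUT library just under the lowest Control library. The log2 fold change was -0.57 (SE 0.15, limma adjusted p = 0.0154), and the call was lost without 2MUT library 1 (adjusted p = 0.0596) or 2MUT library 2 (adjusted p = 0.0553). With 2-HG the separation was wider, from 69.6, 61.1 and 72.8 RPM to 32.5, 41.5 and 41.1 RPM (-0.81, SE 0.13, limma adjusted p = 0.00121).

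Tapbp (tapasin), which bridges TAP and the empty class I molecule, differed between the experiments. In Control it was at 714, 804 and 693 RPM and in 2MUT at 610, 703 and 589 RPM, where 1 2MUT library lay within the Control range, and the log2 fold change was -0.22 (SE 0.10, limma adjusted p = 0.110). In 2-HG(-) it was at 1376, 1105 and 1105 RPM and in 2-HG(+) at 474, 470 and 498 RPM. That was 2.49-fold lower in the means, with a log2 fold change of -1.31 (SE 0.11, limma adjusted p = 3.37e-05).

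H2-K1, the heavy chain of the class I molecule H-2K, was at 1236, 1187 and 1124 RPM in Control and 473, 479 and 500 RPM in 2MUT. The 2MUT cells thus kept 40.9% of the Control level, with a log2 fold change of -1.29 (SE 0.08, limma adjusted p = 1.45e-06). In 2-HG(-) it was at 230, 267 and 239 RPM and in 2-HG(+) at 163, 149 and 135 RPM, again without overlap, with a log2 fold change of -0.72 (SE 0.11, limma adjusted p = 0.000845). Heavy chain genes are alike in sequence, so reads of H2-K1 may include some of its relatives.

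B2m, the light chain that every classical class I heavy chain needs to fold, was the exception in 2MUT. It was at 781, 838 and 850 RPM in Control and at 1010, 1050 and 1011 RPM in 2MUT, 124% of Control, and all 2MUT libraries were above all Control libraries. The log2 fold change was 0.31 (SE 0.08, limma adjusted p = 0.0112), and without 2MUT library 2 the adjusted p was 0.0529. With 2-HG it went the other way, from 1644, 1594 and 1566 RPM to 912, 1040 and 893 RPM, 59.2% of 2-HG(-), with a log2 fold change of -0.76 (SE 0.10, limma adjusted p = 0.000463). In 2MUT cells the light chain and the heavy chain of the same molecule therefore moved in opposite directions, and with 2-HG both were lower.

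Since heavy and light chain parted in 2MUT cells, the stretches just before their RefSeq starts are shown (GRCm38.p6, at most 200 bases, stopping before the first base that the annotation counts as exon), with capitals marking matches to the NF-kappaB motif in both and, as the first run of capitals in B2m, a match to the core of the interferon-stimulated response element, GAAA and again GAAA with 2 bases of any kind between them. H2-K1 is read on the reverse strand, at chr17:34000348-34000547, and B2m on the forward strand, at chr2:122147487-122147685, inside the gene Patl2 of the other strand but in none of its exons.
H2-K1: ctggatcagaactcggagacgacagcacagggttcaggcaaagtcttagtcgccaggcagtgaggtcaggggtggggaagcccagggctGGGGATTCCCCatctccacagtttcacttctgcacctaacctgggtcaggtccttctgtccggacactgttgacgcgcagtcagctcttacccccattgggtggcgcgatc
B2m: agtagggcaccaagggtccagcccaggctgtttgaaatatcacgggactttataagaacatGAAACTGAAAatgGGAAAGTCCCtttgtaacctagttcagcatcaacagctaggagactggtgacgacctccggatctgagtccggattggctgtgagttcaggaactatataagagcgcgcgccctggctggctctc

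Of the 10 members 9 had a promoter sequence to search, and Tap2 was named only. In the 250 bases before the start, on both strands, the NF-kappaB motif was found in B2m and H2-K1 and in 7.25% of all 32851 promoters. That element core was found in B2m, 139 to 130 bases before the start, and in 2.98% of all promoters. The gamma-activated site TTCNNNGAA was found in Psmb8, 97 to 89 bases before the start, and in 7.02% of all promoters. A match is a description of letters and no evidence of binding. Only exact matches were counted, so a member without a match may still hold a variant of the motif. The part of these motifs in any change was not tested.

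The members are not spread evenly over the genome (GRCm38, GENCODE M21). Psmb9 (chr17:34181987-34187764), Tap1 (chr17:34187553-34197225), Psmb8 (chr17:34197721-34201454) and Tap2 (chr17:34203527-34216321) lie next to each other within 34.3 kb, and with Tapbp (chr17:33915899-33929292) and H2-K1 (chr17:33996017-34000347) they make 6 members within 300.4 kb of the MHC. The RefSeq starts of Psmb9 and Tap1 are 226 bases apart on opposite strands, and the annotated genes overlap. Among these neighbours in 2MUT the log2 fold change ran from -2.78 for Psmb8 to -0.22 for Tapbp. The members outside the MHC are Psmb10 (chr8:105935735-105938444), Psme1 (chr14:55578123-55581529), Psme2 (chr14:55587441-55591113) and B2m (chr2:122147686-122153083), with log2 fold changes in 2MUT from -0.88 to 0.31. Whether reads were counted by strand is not given in the sources used here, so overlapping genes may share reads. Psmb9 overlaps Tap1, Psme1 overlaps Emc9 and B2m overlaps Patl2, each on the other strand. Tapbp overlaps Zbtb22 on its own strand and the antisense gene Gm19412, Psmb8 and Tap2 overlap the antisense gene Gm20496, Tap2 also the long non-coding Gm15821, and Psmb10 the antisense gene Gm16156.

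Whether a member's change differed between the experiments was tested directly over the 12 libraries, as the log2 fold change in 2MUT minus that with 2-HG, for 9594 genes. It differed for 4 of the 8 members that could be tested, where 39.4% of all genes tested did so (19.5% more negative and 19.9% more positive in 2MUT). Psmb8 was more negative in 2MUT by a log2 difference of -1.09 (95% interval -1.59 to -0.58, limma adjusted p = 0.00244), and so was H2-K1 (-0.57, interval -0.85 to -0.29, adjusted p = 0.00394). Tapbp (1.09, interval 0.76 to 1.41, limma adjusted p = 8.15e-05) and B2m (1.07, interval 0.81 to 1.33, adjusted p = 1.21e-05) were more positive in 2MUT. For the others the interval included 0. It ran from -0.41 to 0.50 for Tap1, from -0.22 to 0.71 for Tap2, from -0.26 to 1.13 for Psmb10 and from -0.80 to 0.19 for Psme1. These widths leave room for differences of the size of the changes themselves in Tap2, Psmb10 and Psme1.

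The rest of the proteasome is described by counts and medians, which were not tested against the immunosubunits. Over all genes tested, 16.5% were higher and 17.3% lower in 2MUT, and 16.1% were higher and 16.7% lower with 2-HG. Of 9 other tested subunits of the 20S core, 1 was higher and 2 were lower in 2MUT (Psma2 0.52, Psmb1 -0.64 and Psmb4 -0.35 in log2), and with 2-HG 3 were higher, Psmb3 (0.47) and Psmb4 (0.46) among them, and 0 were lower. Of 17 tested subunits of the 19S regulator, which unfolds ubiquitin-tagged proteins, 3 were higher and 3 lower in 2MUT (Psmd7 0.68, Psmd1 0.67, Psmd8 -0.52, Psmd4 -0.43), and 7 were higher and 0 lower with 2-HG (Psmc5 0.67, Psmd6 0.55). Their medians were 0.14 in 2MUT and 0.30 with 2-HG. Among 6 tested activators and assembly factors, 1 was lower in 2MUT, the chaperone Psmg2 (-0.61). With 2-HG 4 of these were higher, Psmg2 (0.67) among them, led by Psme3, which forms the nuclear cap PA28γ (162, 111 and 185 RPM against 268, 316 and 315 RPM, log2 fold change 0.99, limma adjusted p = 0.00203). The chaperone Psmg1 was higher as well (0.92, adjusted p = 0.00108).

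Of the 6 factors that trim peptides or help to load them, Erap1 was called in both experiments, in opposite directions. In 2MUT 3 of 6 were higher and 0 lower (median 0.21), or 2 of 6 with median-of-ratios scaling, where 16.5% of all genes tested were higher. Pdia3 (ERp57), the partner of tapasin in the loading complex, went from 48.8, 59.5 and 54.8 RPM to 110, 104 and 92.2 RPM (0.89, limma adjusted p = 0.000245), and was not called with 2-HG (-0.28). With 2-HG 0 were higher and 3 lower (median -0.52), where 16.7% of all genes tested were lower. They were led by the tapasin relative Tapbpl (51.1, 88.2 and 38.1 RPM against 22.9, 18.6 and 18.2 RPM, -1.45, limma adjusted p = 0.00222), which was not called in 2MUT (0.16). Erap1, the aminopeptidase that trims peptides in the endoplasmic reticulum, was higher in 2MUT (28.7, 38.5 and 36.0 RPM against 46.7, 48.6 and 52.2 RPM, 0.51, limma adjusted p = 0.015). With 2-HG Erap1 was lower (61.3, 51.6 and 58.8 RPM against 25.3, 31.1 and 28.6 RPM, -0.99, limma adjusted p = 0.000278), and its change differed between the experiments (adjusted p = 2.53e-05).

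Of 9 other class I and class I-like heavy chains tested in 2MUT 6 were lower, 0 higher and 3 not called, with a median of -0.75, where 17.3% of all genes tested were lower. Of 8 tested with 2-HG 6 were lower, 0 higher and 2 not called, with a median of -0.70, where 16.7% of all genes tested were lower. H2-T24, counted among these lower chains, passed the filter of 1 RPM only through 2-HG(-) (3.00 to 3.21 against 0 to 0.20 RPM), so its call is no support. H2-Q4 was lower in both (108, 119 and 139 RPM against 72.5, 73.3 and 60.5 RPM in 2MUT, -0.82, limma adjusted p = 0.000612, and 33.9, 32.4 and 33.4 RPM against 11.3, 16.0 and 15.9 RPM with 2-HG, -1.17, adjusted p = 0.00033). H2-T22 was also lower in both (-0.85 in 2MUT, limma adjusted p = 0.0002, and -0.91 with 2-HG, adjusted p = 0.000686). Fcgrt, a class I-like chain that also pairs with B2m and recycles immunoglobulin G, was lower with 2-HG (99.9, 109 and 101 RPM against 44.9, 42.8 and 37.9 RPM, -1.28, limma adjusted p = 2.48e-05), and was not called in 2MUT (-0.21, adjusted p = 0.175). Of the class II presentation genes 4 were tested in 2MUT and 1, H2-DMa, was higher (0.69), where 16.5% of all genes tested were higher. With 2-HG 3 were tested and 1, Cd74, the invariant chain, was lower (-0.90), where 16.7% of all genes tested were lower.

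Of the transcriptional regulators of class I genes, Irf1, an interferon-induced activator of these promoters, was lower in both experiments, in 2MUT (215, 211 and 188 RPM against 106, 110 and 115 RPM, log2 fold change -0.89, limma adjusted p = 7.09e-05) and with 2-HG (308, 419 and 355 RPM against 294, 231 and 212 RPM, -0.56, adjusted p = 0.018). Nfyb, a subunit of the CCAAT-binding factor, was lower (-0.80, limma adjusted p = 0.00116) and Rfx5, of the RFX complex, was higher (0.59, adjusted p = 0.0281) in 2MUT, so that 1 of 11 was higher and 2 were lower, where 33.8% of all genes tested were called in either direction. With 2-HG Rfx5 was lower (-0.47, adjusted p = 0.0206) and Nfyb was not called (0.25), and 5 of 11 regulators were lower and 0 higher, where 16.7% of all genes tested were lower. Irf9, the DNA-binding part of the interferon-activated complex ISGF3, went from 57.2, 39.9 and 47.1 RPM to 8.59, 9.56 and 10.7 RPM (-2.20, limma adjusted p = 9.97e-06), and its partner Stat2 from 17.2, 16.4 and 18.0 RPM to 4.17, 6.31 and 6.93 RPM (-1.44, limma adjusted p = 0.000256). In 2MUT neither of these was called (0.08 and 0.11), and their changes differed between the experiments (limma adjusted p = 1.85e-06 for Irf9 and 0.000161 for Stat2). Nlrc5, the class I transactivator, was listed at 0 to 0.55 RPM in the IDH2 mutant experiment and at 0 in every library of the 2-HG experiment, and its change was not tested.

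**Figure D4:**
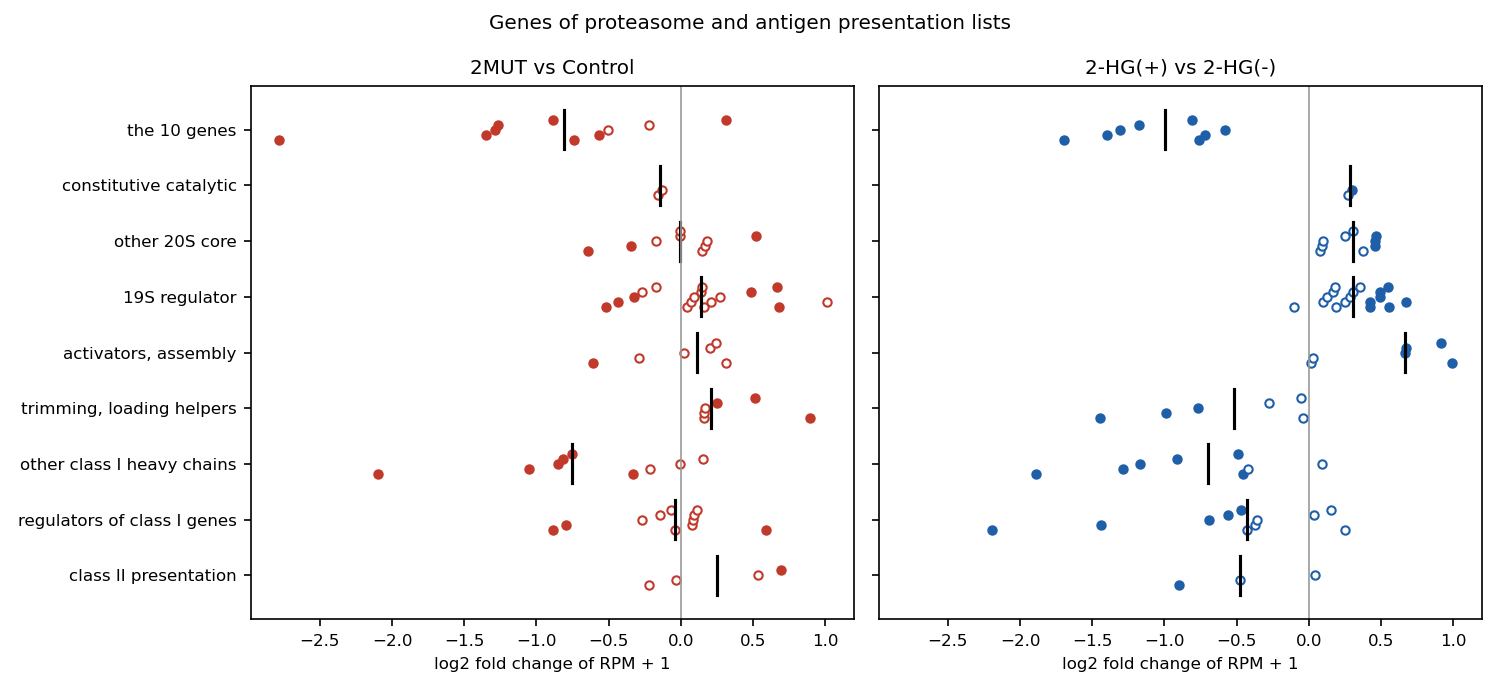
Log2 fold change of RPM + 1 of each tested gene (points, filled where the limma adjusted p was under 0.05, spread vertically only to separate them) by list (rows), with the median of each list as a black bar, in 2MUT against Control (left) and 2-HG(+) against 2-HG(-) (right). The 10 genes and the other class I heavy chains lie mostly below 0 on both sides (medians -0.81 and -0.75 in 2MUT, -0.99 and -0.70 with 2-HG), and the trimming and loading helpers lie above 0 in 2MUT (0.21) and below it with 2-HG (-0.52).

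How far the members moved together was described by the correlation of each with the mean of the others over the 12 libraries, each table centred on its own mean. The differences between the groups are part of r, so it is a description only. It was highest for Tap1 (0.98) and Psmb8 (0.94), between 0.77 and 0.91 for Psmb9, Psmb10, Psme1, Tap2, Tapbp and H2-K1, and 0.35 for B2m. By the same measure, among 6649 other genes whose mean reached 10 RPM in both tables, the patterns most like the mean of the 9 members listed in both were those of Rhbdf1 (r = 0.988), Ednra (0.988), Bcl9 (0.985), Pcdh18 (0.984) and Nicn1 (0.980). Their log2 fold changes were -0.69, -1.34, -0.38, -1.48 and -0.50 in 2MUT and -0.69, -1.64, -0.49, -1.33 and -0.48 with 2-HG, in that order.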

How the data were processed

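RNA was extracted from cultured MEF cells, and libraries were made with the Ion AmpliSeq Transcriptome Mouse Gene Expression kit, which amplifies 1 short target per gene. The authors used TMAP for the alignment and the AmpliSeqRNA plug-in for the counts per gene, and RPM values were deposited in 1 table per experiment. Every library summed to 1000000 within rounding, and 100% of the values gave whole reads when divided by the RPM of 1 read (within 0.001 RPM). These reads served the count-based alternatives, and 0 columns were left without a sample. The reads were aligned to the AmpliSeq mouse transcriptome reference and not to a genome.

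The main test was two-sided, by limma 3.58.1 (R 4.3.3) with its trend option, on log2 values of RPM + 1 and on genes whose mean reached 1 RPM. The study's own test was a per-gene test without moderation, run here as an alternative. Other alternatives were 0.1 RPM added, no filter, a filter at 10 RPM, median-of-ratios scaling, quantile normalization, the replicate number as a block, each library left out in turn, and edgeR 4.0.16 and DESeq2 1.42.0 on the recovered reads. The tests were checked on simulated data. The 10 members and all lists were chosen with earlier results of these data known. Besides the members, genes are named as all genes of a list of at most 3, otherwise at most the 2 largest called rises and falls per list and comparison where the higher group averaged 10 RPM or more, and the 5 genes most alike in pattern. Cell type markers, Psme2b, Idh2, Nlrc5 and the other experiment's values of a named gene are named beyond this rule. Some genes of the lists are not reported here. Libraries within a group differed beyond counting noise (chi-square per degree of freedom 5.57 to 31.4). Per experiment, 27 names had been turned into dates and stayed out of the test of the difference. Coordinates are from GENCODE M21 on GRCm38 and promoters from RefSeq on GRCm38.p6. Tables were handled with pandas 2.3.3 and plots drawn with matplotlib 3.10.9.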

Additional observations from a re-analysis of the deposited data

Results flagged for a closer look

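The log2 fold change in 2MUT cells differed from that with 2-HG for 4 of 8 members tested, by limma's test of the difference over the 12 libraries, where 39.4% of all genes tested differed. The difference, 2MUT minus 2-HG, was -1.09 for Psmb8, which was lower in 3 of 3 libraries in both experiments but more so in 2MUT, and -0.57 for H2-K1, likewise lower in both. It was 1.09 for Tapbp, whose groups overlapped in 2MUT and were far apart with 2-HG, and 1.07 for B2m, which was higher in 3 of 3 2MUT libraries and lower in 3 of 3 2-HG(+) libraries. The experiments also differ in the length of exposure, the vector, the selection, the sequencing depth and the list of entries. Of the listed names 20443 are shared, and a shared name need not stand for the same amplified stretch in both. The part of each of these in the differences between the experiments cannot be told apart.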

How the results depend on the processing

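Of 232 alternative values of the main counts and ratios, 225 kept their direction and stayed within a limit. The limit was 1.5 times the reported count or, for a ratio, the root of the summed squares of the SDs of both groups. Among the 225 were 16 counts of members higher with 2-HG that stayed at 0. Within that limit, 5 members were lower in 2MUT and 6 with 2-HG under the unmoderated test, against 7 and 8, since Psmb10 in both, Tap2 in 2MUT and Psme1 with 2-HG lost their calls. The same numbers under a filter at 10 RPM came from fewer members tested, with no call lost. With the unmoderated test 1021 genes were higher and 1223 lower in 2MUT, and 1098 were higher and 1139 lower with 2-HG, against 1826 and 1915 and against 1668 and 1737. The counts as libraries were left out were 1271 to 1926 higher and 1484 to 1880 lower in 2MUT, and 1146 to 1745 higher and 1176 to 1580 lower with 2-HG. The members called lower then numbered 6 to 8 in 2MUT and 7 to 8 with 2-HG, and those called higher in 2MUT 0 to 1. With 0.1 RPM added the difference of the Psmb9 to Psmb6 log2 ratio with 2-HG was -1.62, and with a filter at 10 RPM 1 member was more negative in 2MUT than with 2-HG, since Psmb8 was no longer tested. Of 432 values for single members 411 were unchanged in direction and call. The difference for Tap1 changed sign around 0, to -0.0703 with quantile normalization, -0.0675 without Control library 3 and -0.0597 without 2MUT library 2, within a range of -0.0675 to 0.164 as libraries were left out. The call of Psme1 with 2-HG was also lost without a filter (adjusted p = 0.0751) and with the unmoderated test (0.203), and that of Tap2 in 2MUT with the latter (0.12). Libraries with the same replicate number did not deviate together (r = 0.07, 0.03 and 0.03 in 2MUT, -0.46, -0.16 and 0.06 with 2-HG). Deviations were taken from the group mean, so these values constrain each other, and they cannot decide whether libraries were prepared in pairs. Among differently numbered libraries r was also 0.41 for 2-HG(-) library 1 with 2-HG(+) library 3. With the replicate number as a block 1911 genes were higher and 1987 lower in 2MUT and 1217 higher and 1286 lower with 2-HG, Tapbp was called lower in 2MUT (adjusted p = 0.0461) and Psme1 was not called with 2-HG (0.0528). Leaving out both libraries that stood apart, an alternative chosen after seeing the data, gave 1902 genes higher and 1680 lower with 2-HG. Psmb9 with 2-HG rests on at most 30 reads a library.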
